A study of Mus musculus with 6 samples.

Results

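Immature beta cells, defined by an insulin reporter alone, were compared with the islet cells that carried neither of the study's reporters. The comparison used 4 of the 6 libraries of the series, 2 per group, and all genes with an RPKM (reads scaled to gene length and library total) of at least 1 in at least 2 of these 4 libraries, which kept 13182 of 46959 genes. All cells came from islets of adult mice carrying both the Ins1-H2b-mCherry transgene, which puts a red histone fusion in the nuclei of cells that have used the insulin promoter, and Ucn3-eGFP, a green reporter of the urocortin 3 gene that marks mature beta cells. Immature beta cells were sorted as mCherry positive and eGFP negative, double negative cells lacked both colours, and the mature libraries of the series, positive for both, are given only as a reference. Each library came from a pool of 10 to 12 mice, and islets spent a night in culture at 5.5 mM glucose before they were dissociated with trypsin and sorted. The double negative cells came from the same islets as the beta cells.

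Pancreatic islets hold insulin-secreting beta cells, glucagon-secreting alpha cells, somatostatin-secreting delta cells and PP cells, together with capillary endothelium, resident macrophages and supporting stromal cells. Transcription factors such as Pdx1, Nkx6-1 and Mafa keep beta cells making insulin, whereas Irx1 and Irx2 are typical of alpha cells and Hhex of delta cells. Other factors, Neurod1, Pax6 and Nkx2-2 among them, are shared by most islet endocrine cells. Islet preparations can also carry enzyme-producing acinar cells of the surrounding exocrine pancreas.

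The immature libraries were shallow. The RPKM steps of low genes corresponded to 2393841 and 3448926 reads in the immature and to 22063880 and 22731664 reads in the double negative libraries, so that 1 read in a 1-kb gene was worth 0.418 and 0.290 RPKM in the former and 0.0453 and 0.0440 RPKM in the latter. The SD of the difference between replicates on the log2(RPKM + 1) scale was 0.387 in immature and 0.221 in double negative cells. Where a library is left out below, its group keeps 1 library, which is assumed to vary like the other group. Leaving out a double negative library thus takes all of the spread from the immature pair, the wider one, and a call lost in that way, with the difference nearly the same, does not show that the difference rested on the library. By the labels, replicate 1 is male and replicate 2 female, whereas the design describes females only. Xist, expressed from the inactive X chromosome of females, measured 129 and 108 RPKM in immature cells against 38.9 and 47.6 RPKM in double negative cells. The Y-linked gene Ddx3y measured 0.161 and 1.23 RPKM in immature replicates 1 and 2 and 0 and 0.0423 RPKM in double negative replicates 1 and 2. These values go against the label male of replicate 1. The Y-linked genes Eif2s3y, Kdm5d and Uty were also higher in replicate 2, labelled female, than in replicate 1 of each group. Eif2s3y measured 0.1 and 2.23 RPKM in immature replicates 1 and 2. The sex of replicate 2 is thus not settled either, and replicates are named here by number only.

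Sequences before some of the hormone genes compared below are shown first. Of these genes, only Ins1 was tied to a reporter used in the sort. Each line gives the 250 bases before the RefSeq start of a gene (GRCm38.p6, read 5′ to 3′ on the gene's strand): Ins1 on the plus strand of chromosome 19 (chr19:52264047-52264296), Iapp on the plus strand of chromosome 6 (chr6:142298175-142298424), Gcg on the minus strand of chromosome 2 (chr2:62483654-62483903) and Sst on the minus strand of chromosome 16 (chr16:23890845-23891094). Capitals mark 3 motifs searched on both strands: TAAT, the core of homeodomain sites such as that of Pdx1, CATCTG, an E-box form bound by dimers with Neurod1, and TGACGTCA, the cAMP response element.
Ins1: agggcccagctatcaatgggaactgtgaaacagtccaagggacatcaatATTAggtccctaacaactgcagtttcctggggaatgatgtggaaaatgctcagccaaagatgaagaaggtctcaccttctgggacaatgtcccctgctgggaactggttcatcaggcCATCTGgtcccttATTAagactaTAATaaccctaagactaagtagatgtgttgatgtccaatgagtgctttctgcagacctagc
Iapp: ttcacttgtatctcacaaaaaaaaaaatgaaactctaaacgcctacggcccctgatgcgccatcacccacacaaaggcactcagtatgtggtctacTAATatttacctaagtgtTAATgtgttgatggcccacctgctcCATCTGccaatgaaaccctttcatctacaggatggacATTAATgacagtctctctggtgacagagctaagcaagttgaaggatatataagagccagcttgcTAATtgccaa
Gcg: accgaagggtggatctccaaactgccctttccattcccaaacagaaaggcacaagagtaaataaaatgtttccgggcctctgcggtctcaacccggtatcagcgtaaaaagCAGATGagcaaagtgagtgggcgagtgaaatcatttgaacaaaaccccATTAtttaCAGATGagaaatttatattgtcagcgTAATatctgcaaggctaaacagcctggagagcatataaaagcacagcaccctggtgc
Sst: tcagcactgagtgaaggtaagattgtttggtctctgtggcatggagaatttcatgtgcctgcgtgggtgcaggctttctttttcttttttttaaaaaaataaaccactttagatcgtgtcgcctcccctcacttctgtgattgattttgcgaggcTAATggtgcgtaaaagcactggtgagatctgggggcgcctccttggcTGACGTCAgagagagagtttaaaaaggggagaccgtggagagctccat
TAAT occurred 3 times before Ins1, 5 times before Iapp (of which 2 matches overlap), 2 times before Gcg and 1 time before Sst. Of all 32851 RefSeq windows of this length 54.9% held it, and 17.3% held it 3 or more times. CATCTG occurred 1 time before Ins1, 1 time before Iapp and 2 times before Gcg, against 14.4% of all windows with a match. The Sst window held 1 cAMP response element, a motif found in 1.55% of windows, and the windows of the other 3 genes held none. These are matches of letters, not bound sites.

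Insulin and the other beta cell products were higher in immature than in double negative cells. The groups were sorted on the Ins1-H2b-mCherry reporter, so the insulin difference follows from the sort and is not separate evidence. Of 13182 tested genes, 5088 (38.6%) were higher and 1086 (8.24%) lower in immature cells by limma at an adjusted p under 0.05, 46.8% in all. Differences of at least 1 on the log2 scale were called for 13.8% of genes in the higher and 1.84% in the lower direction. The groups did not overlap for 76.4% of genes, with both immature values above both double negative values for 59.3% and below them for 17.2%. All 8 members of the insulin and beta peptide list were tested and higher, with a median difference in log2(RPKM + 1) of 3.07 beside 0.24 over all tested genes. Ins2, which encodes the major mouse insulin, measured 44931.66 and 49012.22 RPKM in immature cells against 1125.86 and 2411.98 RPKM in double negative cells. The groups lay far apart, and as a ratio the double negative replicates differed more than the immature ones. Ins2 differed by 4.83 on the log2 scale (SE 0.40, limma adjusted p = 0.00102), a 26.6-fold ratio of means, and Ins1 by 4.67 (SE 0.38). Iapp (chromosome 6, 142298423 to 142303961, GRCm38), which encodes amylin, the peptide released with insulin, measured 15519.38 and 15030.12 RPKM in immature cells against 3208.06 and 3801.88 RPKM in double negative cells. Its 4.36-fold ratio of means was much smaller than that of the insulin genes. In the mature libraries Ins2 averaged 164400 RPKM and Iapp 40280 RPKM, above both groups compared here.

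Smaller beta cell products followed the same order. Prlr, the prolactin receptor gene, measured 11.96 and 15.20 RPKM in immature cells against 0.378 and 0.817 RPKM in double negative cells, a difference of 3.19 (SE 0.19). Npy, which encodes neuropeptide Y, measured 21.40 and 36.88 RPKM against 2.08 and 3.65 RPKM, resting on 29 and 72 reads in the immature libraries. Ucn3, whose green reporter was used to sort the cells, measured 20.35 and 31.78 RPKM in immature cells against 1.07 and 2.83 RPKM in double negative cells (difference 3.23, SE 0.35, limma adjusted p = 0.00232). For all 3 genes both immature values lay above both double negative values.

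**Figure D1:**
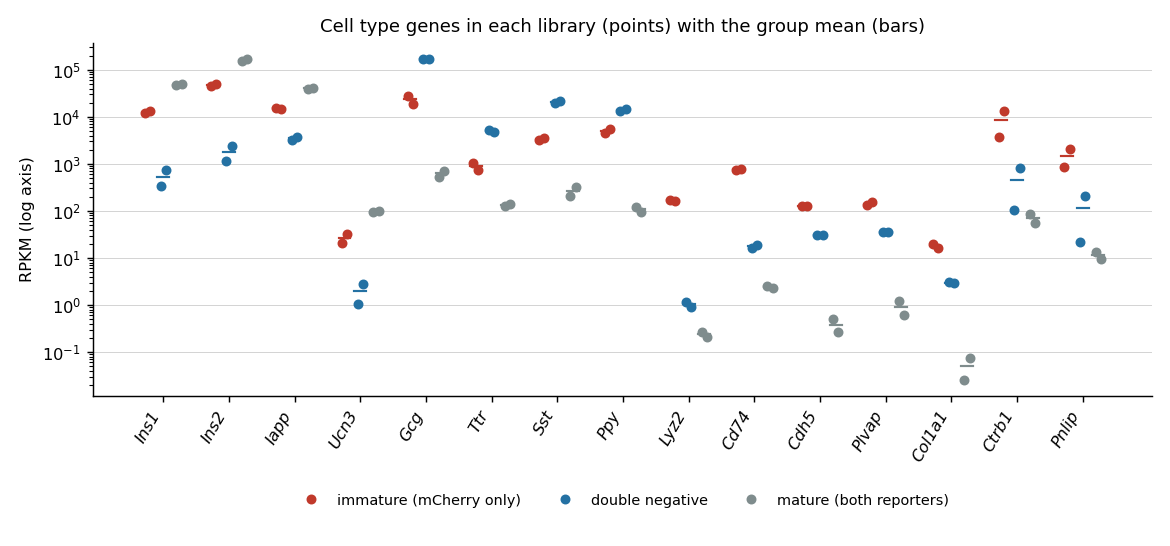
RPKM of 15 genes that mark islet and other pancreatic cell types (log axis), with 1 point per library, bars at group means and 2 libraries per group. The immature libraries lie between the mature and the double negative libraries for Ins1, Ins2, Iapp and Ucn3 and for Gcg, Ttr, Sst and Ppy, and above both for Lyz2, Cd74, Cdh5, Plvap, Col1a1, Ctrb1 and Pnlip.

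Hormone genes of the other endocrine cells were lower in the immature libraries, though Gcg, Sst, Ppy and Pyy were far from absent. All 13 tested alpha cell genes were lower, with a median difference of -1.65. So were all 7 tested delta cell genes, with a median of -1.52, beside 8.24% of all tested genes. Gcg (chromosome 2, 62474530 to 62483650, minus strand, GRCm38), the glucagon gene, measured 28018.13 and 19011.80 RPKM in immature cells against 172628.81 and 166607.97 RPKM in double negative cells. The double negative values were 7.21 times higher in the mean, and the groups did not overlap. Gcg differed by -2.88 (SE 0.46, limma adjusted p = 0.00719), and by -2.85 (limma adjusted p = 0.0873, spread from the immature pair) without double negative replicate 1. Gcg alone accounted for 7.47% and 4.83% of the RPKM total of the immature libraries and for 40.3% and 38.9% of that of the double negative libraries. In such mixed samples fewer cells of a type and less of its RNA per cell cannot be told apart.

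Alpha cell genes differed in how far they fell. Ttr, the transthyretin gene, was 5.62 times and Irx1, a homeodomain factor, 5.86 times higher in the mean of the double negative libraries. Irx2, a related factor, measured 11.07 and 8.13 RPKM in immature cells against 35.03 and 29.27 RPKM in double negative cells, a smaller ratio of 3.35 with no overlap. Gc, the vitamin D-binding protein gene, differed by -2.08 (SE 0.11).

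Among delta and PP cell genes the ratios were also uneven. Sst, the somatostatin gene, measured 3213.59 and 3543.24 RPKM in immature cells against 19746.35 and 21308.78 RPKM in double negative cells, 6.08 times higher in the latter. Rbp4, which encodes retinol-binding protein, was lower by -1.92 (SE 0.08) and Hhex by -1.52 (SE 0.08). Ppy and Pyy, the pancreatic polypeptide and peptide YY genes, were only 2.74 and 2.06 times higher in double negative cells, with 4484.84 and 5638.86 RPKM of Ppy in the immature libraries. Without double negative replicate 1, with the spread from the immature pair, Ppy differed by -1.53 beside -1.46 in the full fit and Pyy by -1.04 in both, and neither passed the threshold. Ghrl, the ghrelin gene of epsilon cells, was listed at 0 in both immature libraries and at 3.86 and 8.24 RPKM in double negative cells.

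**Figure D2:**
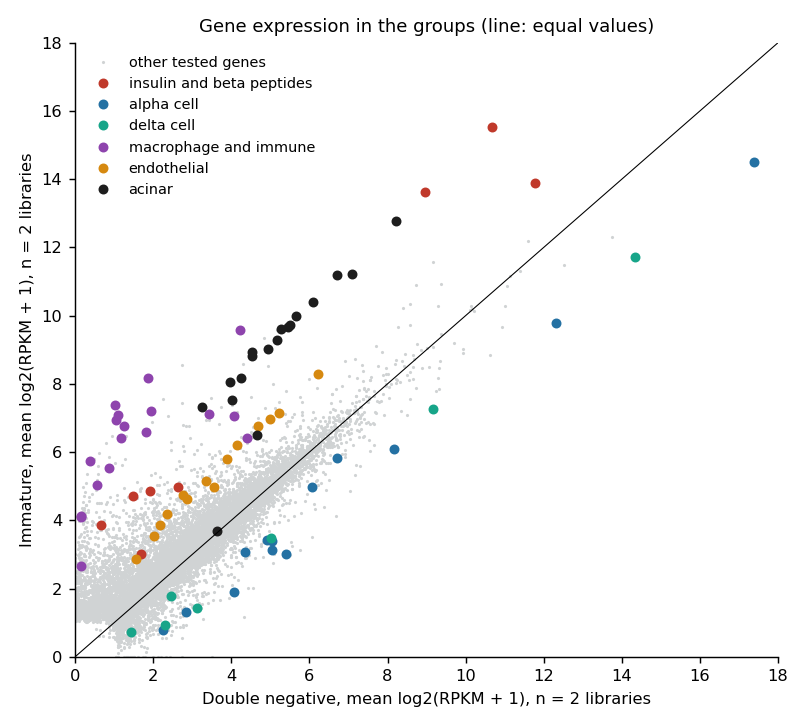
Mean log2(RPKM + 1) of each tested gene in double negative (horizontal axis) and immature cells (vertical axis), 2 libraries each, with members of 6 gene lists coloured and a line of equal values. All tested alpha and delta cell genes lie below the line, and all beta peptide, endothelial and immune genes lie above it.

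The factors of beta cell identity were higher in immature cells, whereas those shared by endocrine cells differed little. Of all tested genes, 38.6% were higher and 8.24% lower. Of 6 tested beta cell factors, 5 were higher and 1, Nkx2-2, was not called (median difference 1.93), and 3 were higher without double negative replicate 1. Nkx6-1 measured 39.00 and 51.47 RPKM in immature cells against 6.96 and 7.50 RPKM in double negative cells, a difference of 2.48 (SE 0.14, limma adjusted p = 0.000464). Pdx1, which activates insulin transcription and is also made by delta cells, measured 34.26 and 42.59 RPKM against 11.32 and 12.90 RPKM, a 3.17-fold ratio. Mnx1, a homeodomain factor of beta cells, measured 5.01 and 4.64 RPKM against 0.121 and 0.274 RPKM, from 27 and 36 reads in the immature libraries. Mafa, an activator of insulin transcription in mature beta cells, had 13.15 and 37.85 RPKM in immature cells, a wider gap between replicates than for Pdx1, Nkx6-1 or Mnx1. Its double negative values were 1.01 and 1.96 RPKM, and the difference of 3.27 (SE 0.50, limma adjusted p = 0.00646) became 2.99 and was not called without double negative replicate 1 (limma adjusted p = 0.0599). Pax4 was listed at 0 in all 4 libraries.

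Of 11 tested pan-endocrine factors, 2 were higher, 2 lower and 7 not called, and their median difference was 0.00. The shares over all tested genes were 38.6% higher and 8.24% lower. Neurod1, a basic helix-loop-helix factor of all islet endocrine cells, measured 58.47 and 56.42 RPKM in immature cells against 58.58 and 60.48 RPKM in double negative cells. The difference was -0.05 (SE 0.06, limma adjusted p = 0.554). Nkx2-2, counted above among the beta cell factors and shared by other endocrine cells, measured 21.36 and 20.78 RPKM against 20.62 and 18.50 RPKM (difference 0.10, SE 0.08, limma adjusted p = 0.350). Pax6 was higher by 0.43 (SE 0.09), Rfx6 by 0.39 (SE 0.08), while Isl1 differed by -0.39 and Foxa2 by -0.56 (SE 0.08 each). With double negative replicate 1 left out none of these 4 passed the threshold, at differences of 0.43, 0.34, -0.45 and -0.51, and of the 4 Foxa2 alone passed it with double negative replicate 2 left out. Under each of the 3 rescalings used, which lower the values of the immature relative to the double negative libraries, 0 of these factors were higher and 5 lower.

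**Figure D3:**
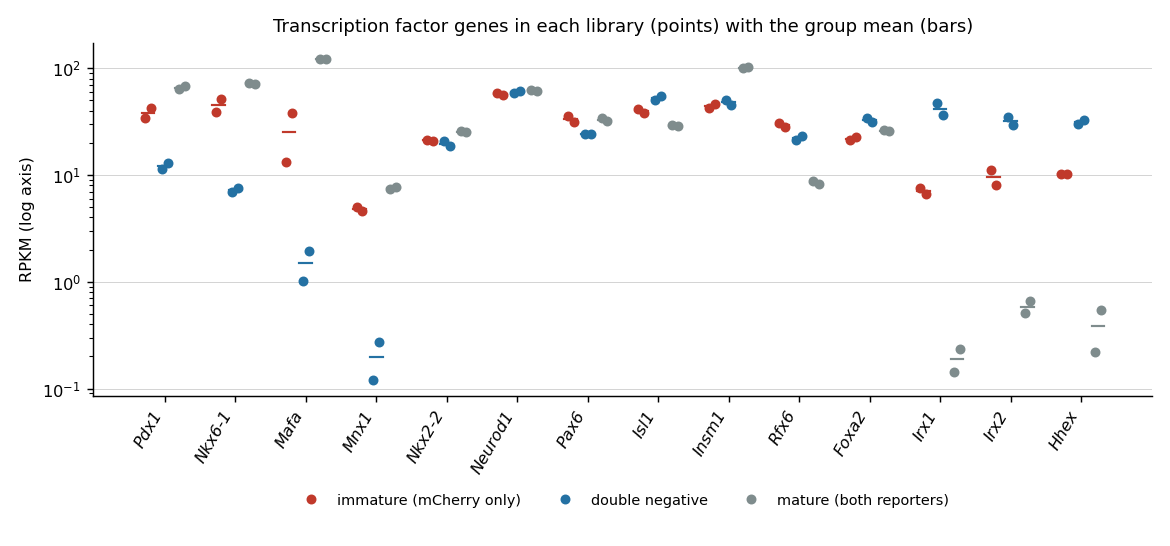
RPKM of 14 transcription factor genes (log axis), with 1 point per library and bars at group means. Pdx1, Nkx6-1, Mafa and Mnx1 are higher in immature than in double negative cells, Neurod1 and Nkx2-2 lie at nearly equal levels, and Irx1, Irx2 and Hhex are lower in immature cells.

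Genes of glucose sensing and electrical activity divided. Of 15 tested, 6 were higher, 3 lower and 6 not called, with a median difference of 0.05. The higher share is near the 38.6% of all tested genes, of which 8.24% were lower. G6pc2, an islet glucose-6-phosphatase, measured 324.41 and 408.48 RPKM in immature cells against 20.16 and 43.28 RPKM in double negative cells, an 11.6-fold ratio (log2 difference 3.58, SE 0.36). Slc2a2, the glucose transporter of mouse beta cells, measured 10.23 and 12.65 RPKM against 0.480 and 1.12 RPKM. By contrast, Abcc8, the sulfonylurea receptor subunit of the ATP-sensitive potassium channel, measured 201.95 and 198.25 RPKM against 207.07 and 196.97 RPKM, so the groups overlapped. Kcnj11, which encodes the pore of that channel, was lower in immature cells by -0.69 (SE 0.09), and Slc30a8, the zinc transporter of secretory granules, by -0.85 (SE 0.08). Trpm5, a calcium-activated cation channel gene, was higher by 1.52 (SE 0.18). Tmem27, a membrane protein gene that alpha cells express as well, measured 518.12 and 436.04 RPKM in immature cells against 935.90 and 1026.19 RPKM in double negative cells. With the rescalings 4 members were higher and between 5 and 7 lower.

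Secretory granule genes divided as well, with a higher share near the 38.6% and a lower share above the 8.24% of all tested genes. Among 15 tested genes of peptide processing and granules, 6 were higher, 7 lower and 2 not called (median -0.07), with 4 lower without double negative replicate 1. Pcsk1, the convertase that starts proinsulin cleavage, measured 116.65 and 127.66 RPKM in immature cells against 6.54 and 12.72 RPKM in double negative cells, a 12.7-fold ratio (difference 3.60, SE 0.28, limma adjusted p = 0.000909). Pcsk2, the convertase that releases glucagon from its precursor, went the other way, at 365.56 and 334.89 RPKM against 658.13 and 616.53 RPKM (difference -0.86, SE 0.09). Pcsk1n, which encodes a small inhibitor of Pcsk1, was lower by -1.44 (SE 0.24). Ero1lb, an oxidoreductase of proinsulin folding, was higher by 2.04 (SE 0.14) and the granin gene Chgb by 1.54 (SE 0.10). Scg5, which encodes the Pcsk2 chaperone 7B2, was lower by -0.91 (SE 0.09), as was Cpe, the carboxypeptidase shared by endocrine cells, by -0.72 (SE 0.11), and by -0.66 without double negative replicate 1, where it was not called. Among 14 genes of the exocytosis machinery 4 were higher, 3 lower and 7 not called, beside the same shares of all tested genes. Sytl4, which encodes the granule protein granuphilin, measured 16.55 and 16.92 RPKM against 0.539 and 1.47 RPKM, by far the widest difference of that list. The other called exocytosis genes moved by less than 1 on the log2 scale, with Syt4 higher by 0.75 and Cplx2 and Rims2 lower by -0.50 and -0.53. Without double negative replicate 1 there were 2 higher and 0 lower exocytosis genes, without double negative replicate 2 there was 1 lower, and with the rescalings between 5 and 7 were lower.

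Receptor genes separated into those higher in immature and those higher in double negative cells. Of 14 tested G protein-coupled receptor genes, 7 were higher, 6 lower and 1 not called, with a median difference of 0.70. The shares over all tested genes were 38.6% higher and 8.24% lower. Glp1r, the receptor for the incretin GLP-1, measured 55.60 and 66.02 RPKM in immature cells against 6.52 and 7.97 RPKM in double negative cells (difference 2.91, SE 0.13, limma adjusted p = 0.000242). Gipr, the receptor for the incretin GIP, measured 16.92 and 17.74 RPKM against 4.06 and 4.52 RPKM. Adra2a, an inhibitory adrenergic receptor of beta cells, was higher by 2.33 (SE 0.15), the galanin receptor gene Galr1 by 2.15 (SE 0.22) and the fatty acid receptor gene Ffar1 by 1.69 (SE 0.09). In the opposite direction, Avpr1b, the vasopressin receptor of alpha cells, measured 8.62 and 5.62 RPKM in immature cells against 46.76 and 42.05 RPKM in double negative cells, from 83 and 78 reads in the former. Sstr2, the somatostatin receptor of alpha cells, was lower by -1.92 (SE 0.22), Gpr119 by -1.72 (SE 0.22), and Ghsr, the ghrelin receptor of delta cells, by -1.68 (SE 0.11). Gcgr, the glucagon receptor gene, was higher by 1.59 (SE 0.15), at 3.51 and 2.99 RPKM against 0.294 and 0.537 RPKM. The smallest called falls, in Sstr1 (-0.65) and Casr (-0.41), did not pass the threshold when either double negative replicate was left out, at differences of -0.62 and -0.69 for Sstr1 and -0.43 and -0.39 for Casr.

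**Figure D4:**
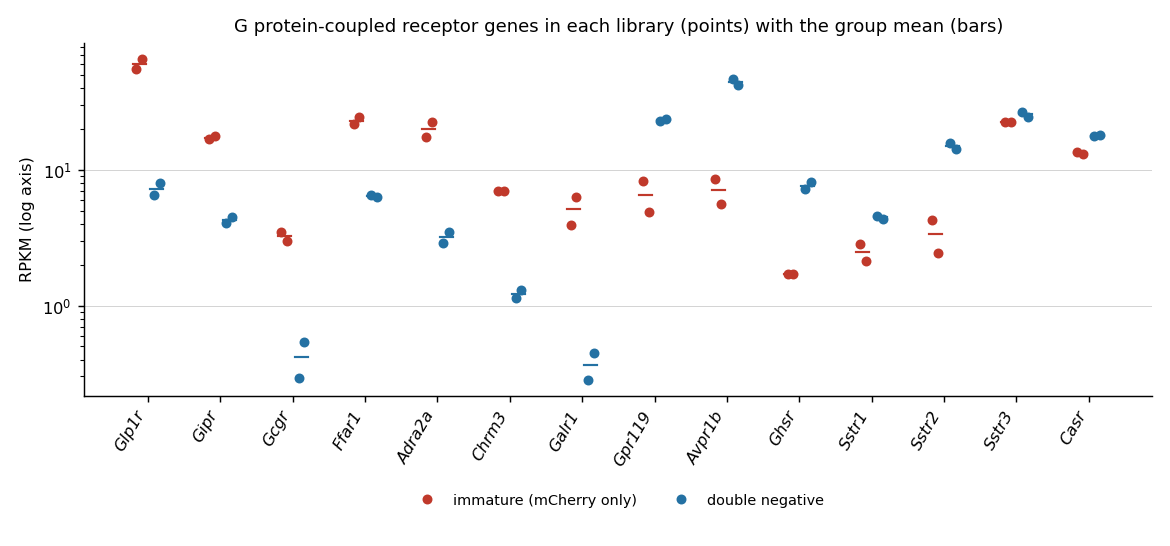
RPKM of 14 receptor genes (log axis) in the 2 immature and 2 double negative libraries, with points for libraries and bars at group means. Glp1r, Gipr, Gcgr, Ffar1, Adra2a, Chrm3 and Galr1 are higher in immature cells, and Gpr119, Avpr1b, Ghsr, Sstr1, Sstr2 and Casr are higher in double negative cells.

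Most of the widest differences between the groups were in genes of macrophages, which were higher in the immature libraries. The 12 largest named rises were in Lyz2, Ctss, C1qb, Mpeg1, Apoe, Acp5, Tyrobp, Sfrp4, Cd74, Pf4, C1qc and Ms4a4a. Lyz2 (chromosome 10, 117277331 to 117282321, minus strand, GRCm38), the lysozyme gene of myeloid cells, measured 167.95 and 166.50 RPKM in immature cells against 1.18 and 0.903 RPKM in double negative cells. Its log2 difference was 6.37 (SE 0.09, limma adjusted p = 2.63e-05). Ctss, a lysosomal protease gene, measured 274.08 and 301.69 RPKM against 2.47 and 2.85 RPKM, a 108-fold ratio. Cd74, the invariant chain of MHC class II, measured 749.26 and 786.14 RPKM against 16.07 and 19.19 RPKM. The immature replicates were close together for these 3 genes, and no value overlapped. Sfrp4, a secreted Wnt antagonist, had the widest gap between immature replicates among the 12, at 52.10 and 109.14 RPKM in the immature libraries.

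All 18 tested members of the macrophage and immune list were higher in immature cells, beside 38.6% of all tested genes. Their median difference was 5.0, with a range from 2.03 for Cd14 to 6.37 for Lyz2. Their summed level was 2399 and 2473 RPKM in immature cells against 76.64 and 82.67 RPKM in double negative cells. The lymphocyte genes Cd3e and Cd79a did not pass the filter, with Cd3e listed at 0 in 3 of the 4 libraries. C1qa had the highest double negative values of the complement genes, at 15.82 and 15.52 RPKM, against 123.31 and 140.51 RPKM in immature cells. Ptprc, the leukocyte antigen CD45, measured 5.45 and 5.18 RPKM in immature cells against 0.0693 and 0.173 RPKM in double negative cells. The sort for mCherry selects cells that have used the insulin promoter, and the part of macrophage RNA in the values of other genes was not tested.

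Endothelial genes were also higher in the cells sorted as immature, by a narrow range of ratios. All 14 tested members were higher, beside 38.6% of all tested genes, with a median difference of 1.88 and extremes of 1.30 for Cldn5 and 2.08 for Eng. Cdh5, the cadherin of endothelial junctions, measured 125.24 and 124.90 RPKM in immature cells against 31.14 and 30.68 RPKM in double negative cells (difference 1.98, SE 0.06). Kdr, the main receptor for VEGF on islet capillaries, measured 75.50 and 71.80 RPKM against 16.41 and 17.23 RPKM. Esm1, a proteoglycan gene of endothelial cells, measured 339.05 and 286.35 RPKM against 70.48 and 76.13 RPKM. In the mature libraries the same genes averaged 0.38, 0.21 and 0.87 RPKM. Among 12 mesenchymal genes 11 were higher and 1, the smooth muscle actin gene Acta2, was not called (median 1.56), and 7 were higher without double negative replicate 1. Dcn, a matrix proteoglycan gene, measured 60.74 and 32.70 RPKM in immature cells against 4.44 and 5.64 RPKM in double negative cells, and Col1a1 20.05 and 16.61 RPKM against 3.05 and 2.90 RPKM.

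Digestive enzyme genes of acinar cells were higher in the immature libraries but varied widely between replicates of both groups. Of 18 tested acinar genes 17 were higher and 1, Bhlha15, was not called (median 4.17), beside 38.6% of all tested genes higher. Ctrb1, a chymotrypsinogen gene, measured 3705.49 and 13423.46 RPKM in immature cells against 106.74 and 822.20 RPKM in double negative cells. Prss2, a trypsinogen gene, measured 1396.73 and 3907.68 RPKM against 34.92 and 298.93 RPKM (difference 4.49, SE 1.08, limma adjusted p = 0.0246). For Ctrb1 and Prss2 replicate 2 was the higher library of each group, and no immature value fell into the double negative range. These calls changed with the libraries used: 0 of the 18 genes were called without double negative replicate 1, 10 without immature replicate 2, and 0 with no filter on low values. The difference itself also moved, to 2.96 for Prss2 without double negative replicate 1 and to 6.02 without double negative replicate 2. Acinar genes made up 3.0% and 8.74% of the RPKM total in immature cells, against 0.0822% and 0.644% in double negative cells. The factor genes Ptf1a and Rbpjl, which define acinar cells, did not pass the filter.

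Ductal genes had a median difference of 0.23, near the 0.24 of all tested genes. Of 11 tested, 3 were higher, 2 lower and 6 not called, beside 38.6% of all tested genes higher and 8.24% lower. The number of higher members changed with the library left out. With the rescalings only 1 or 2 were higher, the list medians were -0.13, -0.01 and -0.02, and Krt7, a keratin gene called higher by 0.23, took those same values. Krt19, a keratin of duct cells, measured 33.55 and 55.02 RPKM in immature cells against 6.84 and 10.93 RPKM in double negative cells. Spp1, which encodes osteopontin, measured 288.21 and 285.55 RPKM against 619.70 and 624.45 RPKM, and Epcam, an epithelial adhesion gene, was lower by -0.93 (SE 0.09). Cftr and Car2 did not pass the filter.

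**Figure D5:**
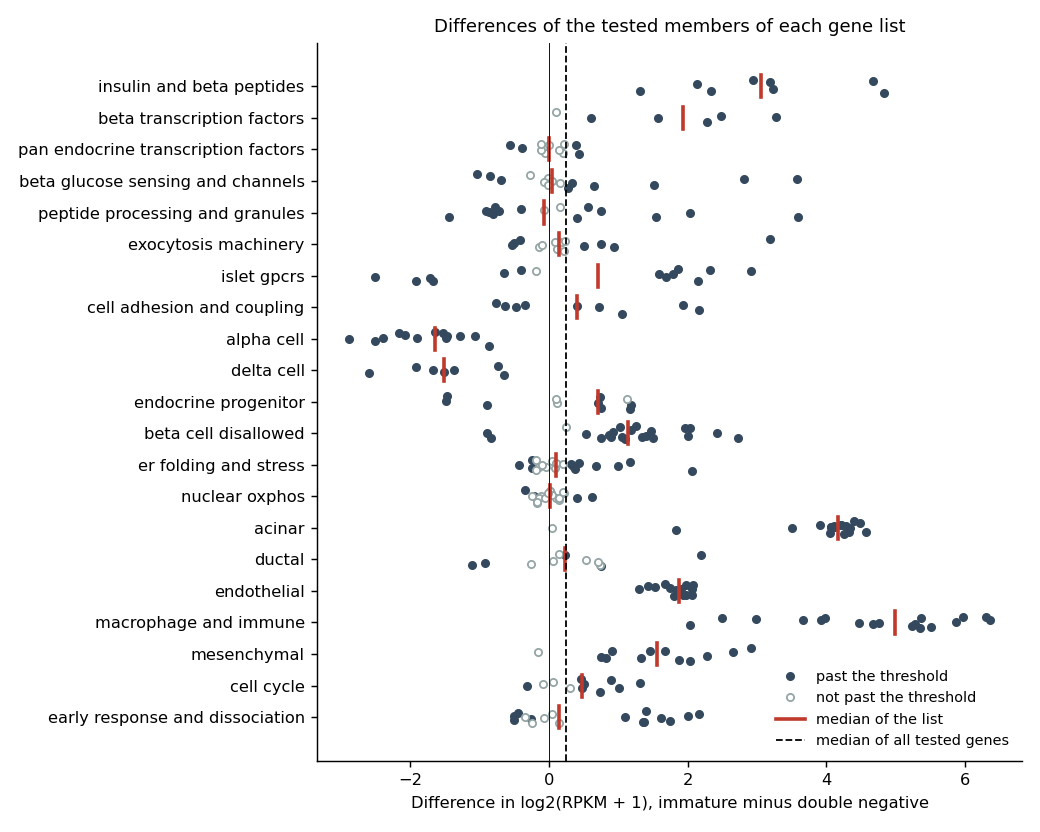
Difference in log2(RPKM + 1), immature minus double negative, for each tested member of 21 gene lists, with filled points for genes past the limma threshold, a red bar at each list's median and a dashed line at 0.24, the median of all tested genes. Macrophage, acinar and beta peptide genes lie furthest to the right, and alpha and delta cell genes lie to the left of 0.

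The largest falls included genes that were in none of the lists. The 12 largest named falls were in Nts, Gcg, Ghrl, Peg10, Sst, Sfrp5, Klhl13, Pdk4, Ttr, Avpr1b, Hapln1 and Irx1. Nts, the neurotensin gene, was listed at 19.15 RPKM in both double negative libraries and at 1.07 and 1.48 RPKM in the immature libraries, a 15.1-fold ratio. The immature values of Nts rest on about 3 and 6 reads. Peg10, an imprinted gene derived from a retrotransposon, measured 9.77 and 6.13 RPKM in immature cells against 53.13 and 52.66 RPKM in double negative cells. Pdk4, a kinase that inhibits pyruvate dehydrogenase, measured 13.09 and 8.26 RPKM against 66.67 and 64.36 RPKM, a difference of -2.54 (SE 0.20, limma adjusted p = 0.000952). In mature cells Peg10 and Pdk4 averaged 0.30 and 0.19 RPKM.

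While 38.6% of all tested genes were higher and 8.24% lower, genes of endocrine progenitors did not move together. Of 11 tested, 5 were higher, 3 lower and 3 not called (median 0.71), and without double negative replicate 1 or 2 only 2 were higher. Neurog3, the factor that starts the endocrine programme, measured 0.543 and 1.69 RPKM in immature cells against 4.56 and 4.77 RPKM in double negative cells (difference -1.47, SE 0.28, limma adjusted p = 0.0119). With either double negative replicate left out, and the spread from the immature pair, the differences were -1.50 and -1.45 and the limma adjusted p was 0.0913 in both. The immature values stand for about 2 and 10 reads. Fev, a serotonergic factor active during endocrine differentiation, measured 6.72 and 6.10 RPKM against 20.46 and 19.21 RPKM, and the groups did not overlap. Hes1, a Notch target that restrains endocrine differentiation, measured 25.43 and 26.19 RPKM against 9.97 and 11.66 RPKM, and Sox4 13.16 and 12.76 RPKM against 5.54 and 4.90 RPKM. Endothelial genes, with a summed level of 1003 and 956 RPKM in immature cells against 234.4 and 247.2 RPKM in double negative cells, moved in the same direction as Hes1 and Sox4, and their part in these values was not tested.

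Most genes that mature beta cells keep silent, called disallowed genes, were higher in immature than in double negative cells. Of 22 tested, 19 were higher, 2 lower and 1 not called, with a median difference of 1.14. Over all tested genes 38.6% were higher and 8.24% lower, with a median of 0.24. Arhgdib, a gene abundant in blood cells, measured 21.54 and 22.42 RPKM in immature cells against 2.60 and 2.35 RPKM in double negative cells (difference 2.73, SE 0.09). Fcgrt, the neonatal Fc receptor gene, was higher by 2.42 (SE 0.10), Pdgfra, a receptor of mesenchymal cells, by 2.03 (SE 0.14) and Cat, which encodes catalase, by 2.0 (SE 0.13). Ldha, which makes lactate from pyruvate, measured 52.67 and 54.94 RPKM against 19.53 and 19.96 RPKM. Hk1, a hexokinase gene, measured 8.47 and 10.03 RPKM against 8.09 and 7.14 RPKM and was not called (limma adjusted p = 0.144). The members that were lower are Oat and Igfbp4, by -0.90 (SE 0.07) and -0.84 (SE 0.13), the latter at -0.72 and not called without double negative replicate 1. The count of higher members was 11 without double negative replicate 1. Mesenchymal genes, with a summed level of 153.9 and 115.8 RPKM in immature cells against 24.76 and 30.69 RPKM in double negative cells, were higher in the same libraries, as were the macrophage and endothelial genes described above. Their part in the disallowed genes was not tested, and Pdgfra is in both the mesenchymal and the disallowed list.

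Genes of protein folding and oxidative metabolism were near the same level in both groups. Of 20 endoplasmic reticulum genes, 8 were higher, 3 lower and 9 not called (median 0.10). Of 21 nuclear genes of oxidative phosphorylation 2 were higher, 2 lower and 17 not called (median 0.02). Over all tested genes 38.6% were higher and 8.24% lower, with a median of 0.24. Hspa5, the main chaperone of the endoplasmic reticulum, measured 437.89 and 403.35 RPKM in immature cells against 402.72 and 410.17 RPKM in double negative cells. The stress genes Atf3, Trib3 and Ddit3 were higher by 2.06 (SE 0.18), 1.17 (SE 0.08) and 1.0 (SE 0.09). Cox5a, a subunit of cytochrome c oxidase, was higher by 0.62 (SE 0.10), and by 0.66 and 0.59, not called, with either double negative replicate left out. With either of them left out 4 endoplasmic reticulum genes were higher and 0 lower, and 0 oxidative phosphorylation genes were called. Both counts shifted with the scaling: with the rescalings between 8 and 10 endoplasmic reticulum genes and between 9 and 13 oxidative phosphorylation genes were lower.

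The number of calls varied with the libraries in the fit and with the scaling. Without double negative replicate 1 only 1725 genes were higher and 255 lower, and without double negative replicate 2 these were 1935 and 303, with the spread taken from the immature pair. Without immature replicate 1 or 2, where the double negative pair gives the spread, 5783 and 6274 were higher and 1547 and 1572 lower. The median difference of the 13182 genes lay between 0.23 and 0.27 in these 4 fits. The share of calls that were higher in immature cells was 82.4% with the deposited values and between 43.0% and 59.5% after rescaling, with medians over all genes of 0.24 and of -0.11 to 0.02, respectively. With the deposited values and all 3 rescalings, 2227 genes were called higher and 1086 lower. All 3 rescalings lower the immature relative to the double negative values, so lower calls could hardly be lost and their number does not measure robustness.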

How the data were processed

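RNA of cells sorted from mouse islets was made into TruSeq libraries, per the labels' protocols. The authors deposited 1 RPKM column per library, and the tools, per the submitters' processing notes, include STAR 2.5, featureCounts and edgeR 3.14.0, with build GRCm38.p4. Their settings and the annotation are not given in the sources used. RPKM depends on the library's total, so a gene with a large share lowers all others. Depth was recovered from RPKM steps with GENCODE M21 exonic lengths: 78.1% to 83.8% of values under 200 reads were whole within 0.02 reads. Of 13 mitochondrial protein genes, 5 are listed at 0 in all 4 libraries, so a 0 can be a failed estimate.

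Columns were matched to libraries by title. Replicates are separate pools per the design text. The p-values set each group difference against the spread between these libraries, not between single mice. Part of that spread is taken by limma from the other genes (2.96 prior degrees of freedom). No label says that a shared replicate number marks a shared pool. Log2(RPKM + 1) values of the 4 libraries were fitted with limma 3.58.1 in R 4.3.3 (group means, a trend over mean level, 2 residual degrees of freedom, two-sided, Benjamini-Hochberg adjustment over all 13182 genes at 0.05). The mature pair was left out because its replicates differed less (SD 0.128). The added 1 makes differences of low genes too small. Rescalings used median ratios, quantiles, or sums without hormone and acinar genes. The procedure was run on simulated data with few changed genes and no shift in scaling between the groups. Far more genes were called here and the calls varied with the scaling, so that run gives no error rate for these data.

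The comparison, the 24 gene lists and the naming rule were chosen with earlier results of these data known. The rule took Ins1, Gcg and Ucn3, the 12 largest rises and 12 largest falls (the higher group's mean at or above 5 RPKM, no overlap, no predicted genes) and the 4 widest members of each list. Others were named for their role. Lists are described by counts and medians, without a set test.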

Additional observations from a re-analysis of the deposited data

How the results depend on the processing

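Shallow immature libraries and 2 libraries per group limit the precision: low genes rest on few reads there. Counts were 2833 higher and 3109 lower with median ratios, 2331 and 3092 with quantiles, and 3191 and 2174 without hormone and acinar genes. limma-voom on recovered reads called 3833 higher and 721 lower among 8859 genes with whole reads, and the RPKM fit on these genes, added after seeing the data, 3390 higher. Leaving out a library gave 1725 to 6274 higher and 255 to 1572 lower genes. With no filter 3989 were higher and 898 lower. With the replicate block 4560 were higher and 961 lower (5728 and 1313 with all 6 libraries). Deviations of same-numbered libraries correlated at 0.145 between immature and double negative and at -0.109 between mature and double negative cells. Summed acinar genes were higher in replicate 2 of immature (11240 and 34410 RPKM in replicates 1 and 2) and double negative cells (352 and 2759 RPKM). In mature cells they were lower in replicate 2 (244.5 and 178.7 RPKM). The Y-linked genes named above were higher in replicate 2 of the immature and double negative groups. All groups came from the same islets, but no label ties a number to a pool. Whether the numbers pair the libraries is not settled by these values. Genes that were not called changed sign: Nkx2-2 (-0.24, -0.17 and -0.14 with the rescalings in the order above), Hspa5 (-0.31, -0.36 and -0.21, and -0.01 without immature replicate 1), Bhlha15 (-0.28, -0.24 and -0.18, and -0.06 without immature replicate 1), Fos (-0.21, -0.06 and -0.10), Hk1 (-0.08 and -0.07 with median ratios and quantiles), Abcc8 (0.02 without double negative replicate 1) and Acta2 (0.43 without immature replicate 2). Ranges over left-out libraries were -0.05 to 0.02 for Abcc8, -0.01 to 0.11 for Hspa5, -0.06 to 0.17 for Bhlha15 and -0.76 to 0.43 for Acta2. Of 218 called list genes, 35 lost the call or changed sign under at least 1 rescaling, and 6 of these changed sign: Krt7 (-0.13, -0.01 and -0.02), Atp2a3 (-0.09), Dnajb9 (-0.04), Herpud1 (-0.01) and Cacna1d (-0.00) with median ratios, and Atf4 (-0.04) with quantiles. The cause was not tested.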

Other observations

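Genes of cell adhesion and electrical coupling were split between the groups, with 5 of 9 tested members higher and 4 lower in immature cells (median difference 0.40), and 2 higher and 0 lower with either double negative replicate left out. Gjd2, which encodes connexin 36, the gap junction protein that couples beta cells, measured 48.90 and 49.85 RPKM in immature cells against 10.01 and 10.31 RPKM in double negative cells, and averaged 66.62 RPKM in mature cells. The difference was 2.17 (SE 0.07, limma adjusted p = 0.000111). Gja1, which encodes connexin 43 of vascular and stromal cells, measured 26.23 and 21.10 RPKM against 4.86 and 5.99 RPKM, and averaged 0.0715 RPKM in mature cells. Efna5, an ephrin gene, differed by -0.76 (SE 0.11) and the adhesion gene Ncam1 by -0.64 (SE 0.11). Beside the counts of this list, 38.6% of all tested genes were higher and 8.24% lower.

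Cell cycle genes were called higher in 7 and lower in 1 of 11 tested cases (median 0.48), and 2 were higher without double negative replicate 1 or 2. With the rescalings 2 to 4 were higher and 2 lower, at medians of 0.19, 0.08 and 0.28. With the deposited values 38.6% of all tested genes were higher and 8.24% lower. Mcm3, a subunit of the replication helicase, measured 7.68 and 9.43 RPKM in immature cells against 2.54 and 3.13 RPKM in double negative cells, and Pcna, the sliding clamp of DNA replication, 22.11 and 18.48 RPKM against 9.67 and 9.42 RPKM. The mitotic genes did not pass the filter: Mki67 measured 0.332 and 0.374 RPKM against 0.279 and 0.314 RPKM, from 8 and 13 reads in the immature libraries. The D cyclin gene Ccnd2, abundant in beta cells, was lower by -0.32 (SE 0.06), and by -0.33 and -0.31, not called, with either double negative replicate left out.

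Early response genes, which dissociation of tissue can induce, were higher in 8 and lower in 4 of 17 cases (median 0.15), with 1 lower without double negative replicate 1 and 2 without immature replicate 1 or double negative replicate 2. With the rescalings 8 were higher and 6 or 7 lower, at medians of -0.21, -0.06 and -0.10. Among all tested genes, 38.6% were higher and 8.24% lower with the deposited values, at a median of 0.24. The heat shock genes Hspa1b and Hspa1a were higher by 2.16 (SE 0.14) and 2.0 (SE 0.11), near-identical genes whose reads can be split between them, and Fosb by 1.75 (SE 0.12). Fos measured 144.57 and 138.19 RPKM in immature cells against 131.05 and 123.84 RPKM in double negative cells and was not called (limma adjusted p = 0.141). Of 3 tested glial genes 2 were higher (1 with either double negative replicate left out), with Ngfr, a neurotrophin receptor gene, at 6.42 and 7.49 RPKM against 0.868 and 0.472 RPKM. None of the 5 red blood cell genes passed the filter, and Hbb-bs was listed at 3.36 RPKM in immature replicate 2 and at 0 in the other 3 libraries.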
